A study of Mus musculus with 4 samples.

Results

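The genes described here belong to the families named for enzymes that add or remove methyl and acetyl groups on histones, in the hippocampus of mice 1 day after a tibial fracture. They are the protein-coding genes whose symbols begin with Kdm, Kmt, Setd, Hdac or Kat followed by a number, and 53 of the 29300 genes in the table met this rule. All 53 passed the filter on low counts and were tested among 17144 genes. The symbols of 2 more genes fit the pattern, Kdm6bos (an antisense RNA) and Kdm4dl (a pseudogene), but neither is protein-coding, and they were left out. By family there were 18 Kdm, 8 Kmt, 8 Setd, 11 Hdac and 8 Kat genes. For 6 of them (Kdm8, Kmt2e, Setd3, Setd4, Setd5 and Setd6) no histone mark was assigned here, since their products act on other proteins or their activity on histones is in doubt.

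Hippocampal RNA was sequenced from 2 sham mice and 2 surgery mice, all C57BL/6 males aged 7 to 8 months. Every mouse received isoflurane and the analgesic tramadol. The surgery mice then underwent an open fracture of the tibial shaft fixed with an intramedullary nail, whereas the sham mice were left without fracture, so that the comparison is of fracture on top of anesthesia and analgesia. With 2 mice per group, every p-value here measures only the spread between these mice.

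Histone tails carry methyl and acetyl groups on lysines. These groups are written by methyltransferases (most Kmt and several Setd proteins) and acetyltransferases (Kat), and erased by demethylases (Kdm) and deacetylases (Hdac). Acetylation generally accompanies open, transcribed chromatin, while the effect of methylation depends on the residue: methylated H3K4 and H3K36 mark active genes, and methylated H3K9 and H3K27 mark silent ones. In the hippocampus these enzymes are known for their roles in memory, and deacetylase inhibitors have long been used to enhance memory formation in rodents.

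Library totals ran from 15763432 to 18573386 counts, and 24238 to 25324 genes were detected per mouse. Of all counts, 0.375% and 0.366% fell on the enzyme genes in the sham mice, against 0.391% and 0.389% in the surgery mice. Among markers that could bear on tissue composition, the summed level of choroid plexus genes was 127 CPM (read counts scaled to a common library size) in sham 1, 5423 in sham 2, 2027 in surgery 1 and 3446 in surgery 2, so sham 1 stood apart. The marker counts below stand beside 13.1% of all genes higher and 12.8% lower at an adjusted p under 0.05 in edgeR's test. Of all genes, 6.75% were higher and 2.25% lower DEGs, as defined below. Markers of hippocampal neurons summed to 9823 and 9482 CPM in the sham mice and 8618 and 8313 CPM in the surgery mice. Of these 10 genes, 2 were higher and 4 lower, 2 of the latter as DEGs. Astrocyte markers summed to 3557 and 3305 CPM against 4105 and 3883 CPM, with 3 of 6 genes higher, 1 as a DEG, and 1 lower. Microglial markers summed to 340 and 328 CPM against 320 and 339 CPM. Of these, 1 of 8 genes (P2ry12) was higher, as a DEG, a share near that of all genes. Of 6 markers each, 2 of GABAergic neurons were higher (1 as a DEG) and 2 lower, and 1 of endothelial cells was higher, near the share of all genes. Markers of oligodendrocyte precursors summed to 325 and 320 CPM against 267 and 238 CPM, with 3 of 5 genes lower, 1 as a DEG, and none higher. Markers of oligodendrocytes were at 6183 and 5329 CPM against 6084 and 3927 CPM, with surgery 2 below the other mice, and 0 of 6 genes passed edgeR's test, 0 at an unadjusted p under 0.05 and 0 in DESeq2. No marker gene of these lists was at 0 in every library. In bulk tissue, fewer cells of a type and less RNA per cell cannot be told apart, and the part of cell composition in the values below was not tested.

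As many enzyme genes were higher as were lower after surgery. In the quasi-likelihood test of edgeR, adjusted by Benjamini-Hochberg over all genes, 20 of 53 genes (37.7%) had an adjusted p under 0.05, beside 26.0% of all genes tested. Of these, 10 were higher in the surgery mice (13.1% of all genes were) and 10 lower (12.8% of all genes). With counts scaled by library totals alone the split was 15 higher and 7 lower. Kdm7a and Hdac11 were the only enzyme genes that also passed the study's fold changes for a differentially expressed gene (DEG), at least 1.5 or at most 0.67, whereas 6.75% of all genes were higher and 2.25% lower DEGs (9.01% together). The log2 fold changes of surgery over sham ran from -0.75 to 0.97, with a median of 0.08 beside 0.01 over all genes. In 42 of 53 genes the 2 surgery mice lay beyond the 2 sham mice (25 higher and 17 lower), beside 65.5% of all genes (33.2% higher and 32.2% lower). The number of enzyme genes that passed was 14 without sham 1, 7 without sham 2, 10 without surgery 1 and 8 without surgery 2. The calls of Kdm7a, Setd2, Hdac5, Hdac11 and Kdm4b held whichever mouse was left out, and the other 15 were lost without at least 1 mouse. These changes followed the GC content of the transcripts, as they did across all genes: with the trends of each library with GC content and length removed, 0 of 53 genes passed edgeR's test, beside 1.18% of all genes, and 11 had an unadjusted p under 0.05, beside 21.6% of all genes.

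**Figure D1:**
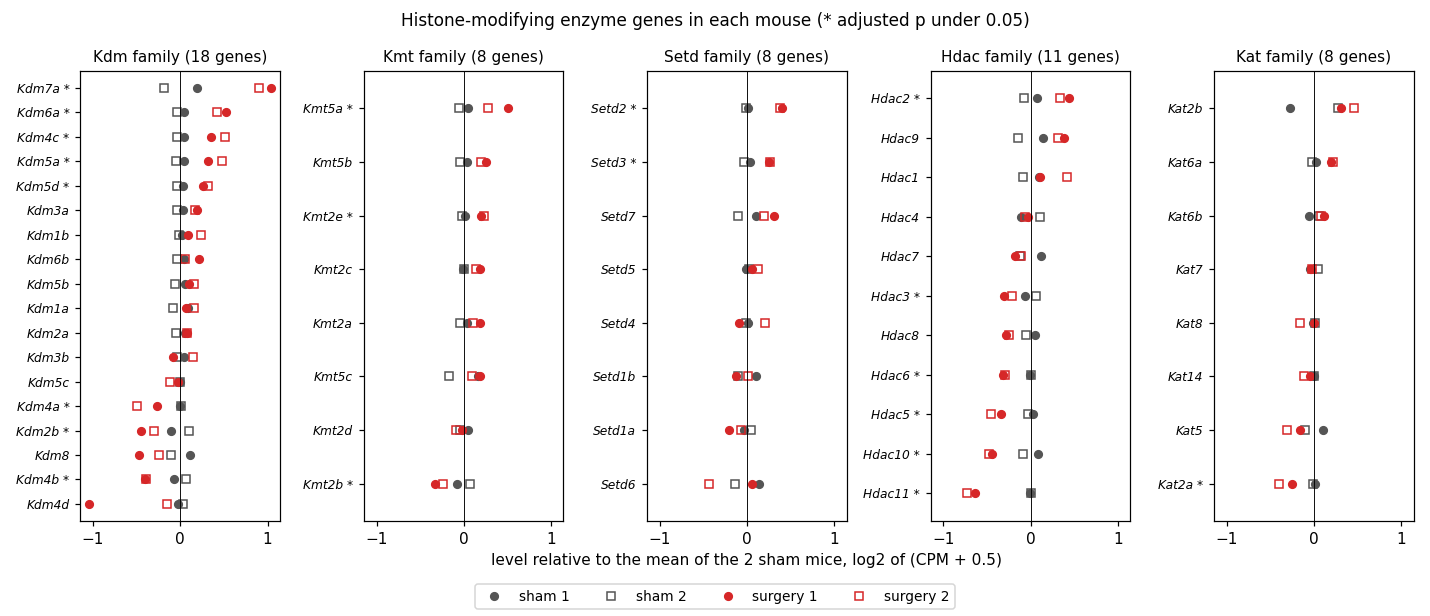
Level of each of the 53 enzyme genes in the 4 mice, by family, as log2 of CPM + 0.5 relative to the mean of the 2 sham mice. Grey symbols are sham mice and red symbols surgery mice, and an asterisk marks an adjusted p under 0.05. Kdm7a lies farthest to the right and, among the genes that passed, Hdac11 farthest to the left.

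The Kdm demethylases had the widest range of the 5 families. Of the 18 genes, 5 rose (Kdm7a, Kdm6a, Kdm4c, Kdm5a and Kdm5d) and 3 fell (Kdm4b, Kdm4a and Kdm2b). Of all genes, 13.1% were higher and 12.8% lower. The family median was 0.12 on the log2 scale, and -0.01 with the trends of GC content and length removed. Kdm7a (chr6:39136623-39206789, mm10, minus strand), which removes methyl groups from H3K9 and H3K27, was at 51.0 and 39.1 CPM in the sham mice and at 92.2 and 84.0 CPM in the surgery mice. Both surgery mice lay well above both sham mice, and the gene rose 1.96-fold (log2 fold change 0.97 ± 0.13 SE, edgeR adjusted p = 0.0057). With 1 mouse left out its log2 fold change stayed between 0.78 and 1.17. The bases directly upstream of Kdm7a and of Hdac11, the 2 genes that passed as DEGs, are shown because the GC-poor transcript of Kdm7a (39.6% GC) starts from the more GC-rich stretch, and the GC-rich transcript of Hdac11 (57.4% GC) from the less GC-rich one. They were taken from the RefSeq promoter table (GRCm38.p6), which held 41 of the 53 genes, and cover chr6:39206790-39207023 on the minus strand for Kdm7a and chr6:91156565-91156664 on the plus strand for Hdac11. Capitals mark SP1 GC boxes (GGGCGG on either strand).
Kdm7a: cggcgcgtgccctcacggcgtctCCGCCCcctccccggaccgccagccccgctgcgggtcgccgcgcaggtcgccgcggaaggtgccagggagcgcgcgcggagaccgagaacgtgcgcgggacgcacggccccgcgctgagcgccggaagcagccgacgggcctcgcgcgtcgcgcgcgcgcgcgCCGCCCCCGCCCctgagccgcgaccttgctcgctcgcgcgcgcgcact
Hdac11: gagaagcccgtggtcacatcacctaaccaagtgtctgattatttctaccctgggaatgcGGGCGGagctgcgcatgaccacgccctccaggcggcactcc
The Kdm7a stretch holds 3 GC boxes and 52 CpG dinucleotides in 234 bases (82.1% GC), and the Hdac11 stretch holds 1 GC box and 6 CpG in 100 bases (60.0% GC). Over the 250 bases before the start, 23 of the 41 promoters held a GC box (56.1%, beside 32.7% of all 32851 promoters), and none held the cyclic AMP response element TGACGTCA (1.55% of all), on either strand. TATAAA was present in 2 of the 41 (12.4% of all), Hdac8 and Kdm5d. The median GC content of these windows was 60.4% with 17 CpG, beside 52.4% and 6 over all promoters. Promoter GC content had a Spearman's rho of 0.23 with the log2 fold change over the 41 genes, given as a description.

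Among the H3K27 demethylases, X-linked Kdm6a was at 24.6 and 23.3 CPM in the sham mice and at 34.5 and 32.2 CPM in the surgery mice. The groups did not overlap, and the gene rose by 0.48 ± 0.10 (edgeR adjusted p = 0.015). With the trends of GC content and length removed it was at 0.07 and did not pass. With 1 mouse left out the log2 fold change was 0.41 to 0.53, and the call was lost without sham 2 (0.44) or without surgery 1 (0.41). Its autosomal relative Kdm6b, an inducible enzyme, was at 50.5, 47.7, 56.9 and 51.0 CPM in sham 1, sham 2, surgery 1 and surgery 2. Its groups were separate but close, and it did not pass (0.14 ± 0.09, edgeR adjusted p = 0.30).

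The Kdm4 enzymes act on H3K9 and, except for Kdm4d, on H3K36, and their genes went in opposite directions. Kdm4c was at 26.5 and 24.95 CPM in the sham mice and 32.9 and 36.7 CPM in the surgery mice. It rose by 0.44 ± 0.10 (edgeR adjusted p = 0.023), but not without sham 2 (0.39) or without surgery 2 (0.36). Kdm4b (chr17:56326062-56402870, plus strand) was at 118 and 130.0 CPM in the sham mice and at 93.7 and 94.4 CPM in the surgery mice, which lay below and close to each other. Kdm4b fell by 0.40 ± 0.07 on the log2 scale (edgeR adjusted p = 0.011), and Kdm4a fell by 0.38 ± 0.09 (edgeR adjusted p = 0.026, with log2 fold changes of -0.51 to -0.26 when 1 mouse was left out, and the call held in 1 of those 4 fits). Kdm4d, a gene best known from testis, was near the limit of detection at 1.39, 1.48, 0.439 and 1.24 CPM. Its log2 fold change of -0.75 ± 0.48 was the lowest of the 53 but did not pass (edgeR adjusted p = 0.30), and it ran from -1.69 to -0.22 with 1 mouse left out.

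The H3K4 demethylases comprise the Kdm1 and Kdm5 genes. Kdm5a was at 41.7 and 39.1 CPM in the sham mice and 50.5 and 56.2 CPM in the surgery mice, and rose by 0.40 ± 0.09 (edgeR adjusted p = 0.022). The call was lost without sham 2 or surgery 2 (0.33 to 0.46 over the 4 fits with a mouse left out), and the value was 0.04 with the trends of GC content and length removed. The family includes a pair of genes on the sex chromosomes. Y-linked Kdm5d was at 37.6 and 35.8 CPM against 43.9 and 46.0 CPM and rose by 0.29 ± 0.08 (edgeR adjusted p = 0.043). That call was lost with any 1 mouse left out (0.25 to 0.32), and the value was -0.04 with the trends of GC content and length removed. X-linked Kdm5c was at 70.0 and 70.1 CPM against 68.8 and 64.3 CPM, with a log2 fold change of -0.07 ± 0.07 that did not pass. The log2 fold changes of Kdm1a, Kdm1b and Kdm5b lay between 0.11 and 0.17 and did not pass. Of the H3K36 demethylases Kdm2b, which brings Polycomb complexes to CpG islands, fell by 0.38 ± 0.11 (32.3 and 37.3 CPM against 25.3 and 28.0 CPM, edgeR adjusted p = 0.049), a call that held in 1 of the 4 fits with a mouse left out (-0.49 to -0.28). Kdm2a, at 104 to 114 CPM in the 4 mice, did not pass (0.08 ± 0.07), and neither did the H3K9 demethylases Kdm3a (0.18 ± 0.08) and Kdm3b (0.04 ± 0.10) or Kdm8 (-0.38 ± 0.19), whose action on histones is disputed.

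**Figure D2:**
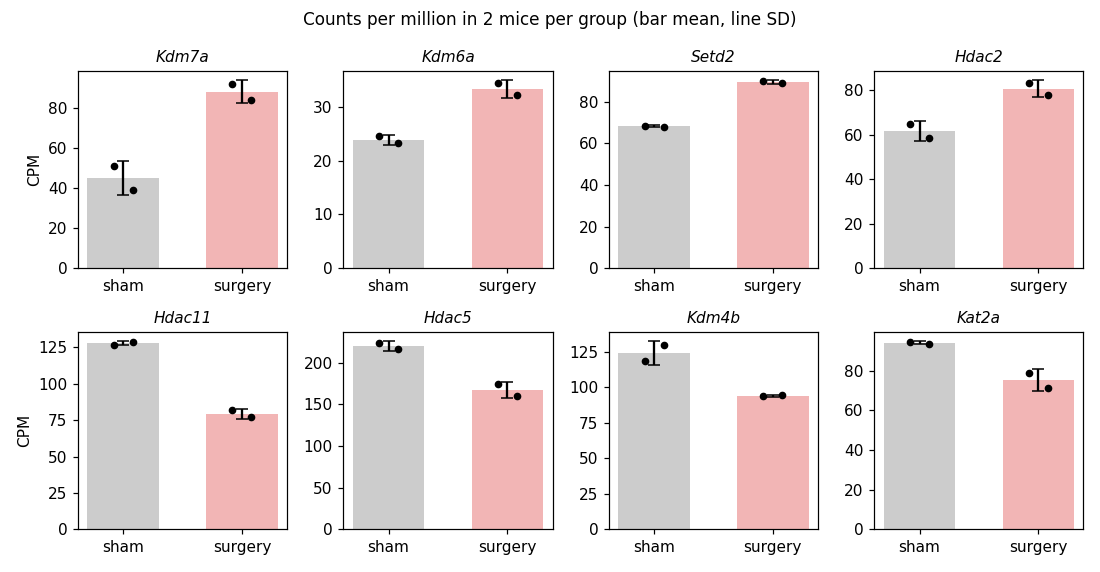
CPM of 8 enzyme genes in the sham and surgery mice, as bars for the mean of 2 mice, lines for the SD and points for each mouse. The 4 genes in the upper row were higher and the 4 in the lower row lower in the surgery mice, and in each of the 8 the points of the 2 groups do not overlap.

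Of the 8 Kmt genes, 2 rose, 1 fell and 5 did not pass, beside 13.1% of all genes higher and 12.8% lower. The 1 gene that fell is near that share. The median log2 fold change was 0.16. Kmt5a, which places the first methyl group on H4K20, was at 38.6 and 35.8 CPM in the sham mice and 53.3 and 45.4 CPM in the surgery mice. The surgery mice differed by more than the sham mice but both lay above them, and Kmt5a rose by 0.41 ± 0.10 (edgeR adjusted p = 0.033). Its log2 fold change was 0.27 without surgery 1 and 0.52 without surgery 2, and the call was lost without sham 1, sham 2 or surgery 1. Kmt5b and Kmt5c add further methyl groups to H4K20 and did not pass, with log2 fold changes of 0.23 ± 0.07 (edgeR adjusted p = 0.061) and 0.14 ± 0.14 (edgeR adjusted p = 0.50).

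The MLL genes are the large H3K4 methyltransferases Kmt2a to Kmt2d, with Kmt2e as a relative that binds chromatin but is thought to have lost the enzymatic activity. Kmt2a was the most highly counted of the 53 genes, at 261 and 246 CPM in the sham mice and 290 and 273 CPM in the surgery mice, and did not pass (0.15 ± 0.06, edgeR adjusted p = 0.14). Kmt2b was at 111 and 124 CPM in the sham mice and at 93.2 and 99.8 CPM in the surgery mice, and fell by 0.29 ± 0.08 (edgeR adjusted p = 0.042). Kmt2e was at 129 and 127 CPM against 147 and 151 CPM, and rose by 0.22 ± 0.06 (edgeR adjusted p = 0.040), although its exons overlap those of Srpk2 on the opposite strand, a gene at 152 and 148 CPM in the sham mice and 197 and 200.4 CPM in the surgery mice, higher in the same mice as Kmt2e. Its part in the counts of Kmt2e was not tested. The call of Kmt2e was lost with any 1 mouse left out (0.20 to 0.23), and that of Kmt2b without sham 2, surgery 1 or surgery 2 (-0.21, -0.25 and -0.33). With the trends of GC content and length removed Kmt2e was at -0.0046 and Kmt2b at 0.0011. Kmt2d (-0.06 ± 0.06) and Kmt2c (0.16 ± 0.06) did not pass.

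Of the 8 Setd genes, 2 rose and 0 fell in edgeR's test, beside 13.1% of all genes higher and 12.8% lower. The median was 0.08, and 0 genes were lower at an unadjusted p under 0.05 or in DESeq2. Setd2 (chr9:110532597-110618633, plus strand), the enzyme that trimethylates H3K36 along transcribed genes, was at 68.6 and 67.8 CPM in the sham mice and at 90.2 and 88.9 CPM in the surgery mice. The replicates were nearly equal within each group, and Setd2 rose by 0.39 ± 0.06 (edgeR adjusted p = 0.0084, 0.37 to 0.41 with 1 mouse left out). Setd3, which methylates a histidine of actin rather than a histone, was at 134 and 127 CPM against 155 and 156 CPM and rose by 0.25 ± 0.06 (edgeR adjusted p = 0.029). That call was lost with any 1 mouse left out (0.21 to 0.28), and 10.5% of the 75 nt windows of Setd3 also occur in other genes. Setd7, a methyltransferase of H3K4 and of many non-histone proteins, was at 191, 165, 219 and 203 CPM and did not pass (0.25 ± 0.09, edgeR adjusted p = 0.079). Its log2 fold change ran from 0.14 to 0.35 with 1 mouse left out. Setd1a (-0.14 ± 0.10), Setd1b (-0.06 ± 0.10), Setd4 (0.07 ± 0.15), Setd5 (0.09 ± 0.06) and Setd6 (-0.18 ± 0.20) did not pass either. Of Setd1a, an H3K4 methyltransferase, 50.8% of the windows are shared with the overlapping gene Gm49388, so its counts are uncertain.

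The Hdac deacetylases had the lowest median of the 5 families, -0.26 on the log2 scale. Of the 11 genes, 5 were lower and 1 higher, beside 12.8% of all genes lower and 13.1% higher, and 5 did not pass. Hdac11 (chr6:91156665-91174692, plus strand), the sole class IV deacetylase and an enzyme that removes fatty acyl groups, was at 127 and 129 CPM in the sham mice and at 81.6 and 76.9 CPM in the surgery mice. The replicates lay close together and the groups far apart, and Hdac11 fell by 0.69 ± 0.07 on the log2 scale, to 0.621 of the sham level (edgeR adjusted p = 0.0043, -0.75 to -0.64 with 1 mouse left out). The class IIb genes fell as a pair. Hdac6, which deacetylates tubulin, was at 72.0 and 73.1 CPM against 58.3 and 59.1 CPM, and fell by 0.31 ± 0.07 (edgeR adjusted p = 0.021). Hdac10, known as a polyamine deacetylase, was at 22.6 and 20.02 CPM against 15.6 and 15.2 CPM, and fell by 0.47 ± 0.12 (edgeR adjusted p = 0.031). The call of Hdac6 was lost with any 1 mouse left out (-0.32 to -0.30), and that of Hdac10 in all but the fit without sham 2 (-0.56 to -0.39 over the 4 fits).

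The class IIa deacetylases shuttle between nucleus and cytoplasm in response to neuronal signals. Hdac5 (chr11:102194432-102230166, minus strand) was at 224 and 216 CPM in the sham mice and at 174 and 160.3 CPM in the surgery mice. It fell by 0.39 ± 0.07 (edgeR adjusted p = 0.0090), and the groups did not overlap. Hdac9 was at 36.7 and 29.8 CPM against 43.3 and 41.2 CPM, with a log2 fold change of 0.35 ± 0.12 that did not pass (edgeR adjusted p = 0.073). It ran from 0.20 to 0.50 with 1 mouse left out, and was 0.08 with the trends of GC content and length removed. Hdac4 (-0.05 ± 0.09) and Hdac7 (-0.15 ± 0.10) overlapped between the groups and did not pass.

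The class I deacetylases, the catalytic core of the nuclear corepressor complexes, were divided. Hdac2, known as a brake on memory formation, was at 64.7 and 58.5 CPM in the sham mice and at 83.5 and 78.1 CPM in the surgery mice, and rose by 0.39 ± 0.08 (edgeR adjusted p = 0.018). The call was lost without sham 2 (0.32) or surgery 1 (0.33). With the trends of GC content and length removed Hdac2 was at -0.05. Hdac3, which works within nuclear corepressor complexes, was at 96.3 and 105 CPM against 81.5 and 86.5 CPM, and fell by 0.26 ± 0.07 (edgeR adjusted p = 0.047). It kept its call in 1 of the 4 fits with a mouse left out (-0.32 to -0.20). Hdac1 was at 33.7, 29.7, 34.1 and 42.4 CPM and did not pass (0.27 ± 0.13, edgeR adjusted p = 0.17). Its log2 fold change ran from 0.11 to 0.41 with 1 mouse left out. Processed copies elsewhere in the genome share 29.3% of its windows. Hdac8 did not pass (-0.27 ± 0.13).

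Among the Kat acetyltransferases the median log2 fold change was -0.05. In edgeR's test 1 of 8 genes fell, a share near the 12.8% of all genes, and 0 rose (13.1% of all genes did), with 1 higher at an unadjusted p under 0.05 (Kat6a) and 0 higher in DESeq2. Kat2a, the catalytic subunit of the SAGA complex, was at 94.5 and 93.5 CPM in the sham mice and at 79.0 and 71.2 CPM in the surgery mice, and fell by 0.32 ± 0.08 (edgeR adjusted p = 0.025), a call that held in 1 of the 4 fits with a mouse left out (-0.42 to -0.25). Its close relative Kat2b was at 16.7, 24.8, 25.5 and 28.1 CPM. The low value of sham 1 set its log2 fold change of 0.37 ± 0.19 (edgeR adjusted p = 0.20), which was 0.11 without that mouse and 0.68, and past the threshold, without sham 2. Among the MYST enzymes, Kat6a (0.21 ± 0.07), Kat6b (0.10 ± 0.07), Kat7 (-0.03 ± 0.07), Kat8 (-0.08 ± 0.11) and Kat5, also called Tip60 (-0.23 ± 0.11), did not pass, the lowest adjusted p in edgeR's test being 0.061 for Kat6a. Kat14, of the ATAC complex, did not pass (-0.08 ± 0.09) and shares 12.1% of its windows with Pet117.

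Sorted by residue, writers and erasers of one mark were compared by counts and medians, and their small counts stand beside 13.1% of all genes higher and 12.8% lower. For H3K4, 1 of 7 methyltransferases fell and 0 rose in edgeR's test (median -0.06), although 2 were higher at an unadjusted p under 0.05 (Kmt2c and Setd7), and DESeq2 called 1 lower and 0 higher. Of the 6 H3K4 demethylases, 2 rose and 0 fell in edgeR's test (median 0.15), with 0 lower at an unadjusted p under 0.05, and DESeq2 called 1 higher and 0 lower. Of the 3 demethylases that act on both H3K9 and H3K36, Kdm4c rose while Kdm4a and Kdm4b fell (median -0.38). Kdm7a, which acts on H3K9 and H3K27, rose, as did Kdm6a of the 2 H3K27 demethylases, while the H3K9 demethylases Kdm3a, Kdm3b and Kdm4d did not pass. For H3K36 alone, the methyltransferase Setd2 rose, the demethylase Kdm2b fell and the demethylase Kdm2a did not pass (0.08). All 3 H4K20 methyltransferases had positive log2 fold changes, with a median of 0.23 and 1 past the threshold. The difference between writers and erasers was not tested, and the H3K4 methyltransferases had a median transcript GC content of 56.96% against 46.0% for the demethylases. With the trends of GC content and length removed, the order of these medians was reversed, at 0.12 for the H3K4 methyltransferases and 0.0131 for the H3K4 demethylases.

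The direction of change in the 53 genes followed the GC content of their transcripts. GC content was that of the longest protein-coding transcript, or of the longest transcript where a gene had none. Spearman's rho between the log2 fold change and this GC content was -0.76 over the 53 genes. It was -0.65 over 17120 genes tested, of which 14584 had a coding sequence. These are descriptions across genes, which share the 4 libraries and are not independent replicates. When all genes were divided into 4 bins of equal size at 45.2%, 49.9% and 54.7% GC, 7 of the 9 enzyme genes in the lowest bin rose and none fell, with a median of 0.39 (0.45 over all genes in that bin, of which 41.1% rose). In the second bin 3 of 14 rose and none fell, beside 9.32% of all genes there that rose. In the next, 4 of 16 fell and none rose, beside 14.8% of all genes there that fell. In the highest 6 of 14 fell and none rose, with a median of -0.16 (-0.30 over all genes there, of which 33.1% fell). The trend was shared by the mice of a group. Across the 53 genes, the level relative to the mean of the 4 libraries changed by 0.21 and 0.22 (log2) per 10 points of GC content in the sham mice, and by -0.20 and -0.22 in the surgery mice, whereas the ratio of the 2 sham mice had a slope of 0.011 and that of the 2 surgery mice -0.018. The GC content of the coding sequence (rho -0.66) and that of the 3′ untranslated region (rho -0.66) gave similar values, and the transcript length gave 0.37. Since both mice of a group share the trend, a difference in library composition and an effect of surgery on GC-poor transcripts cannot be told apart in these samples.

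**Figure D3:**
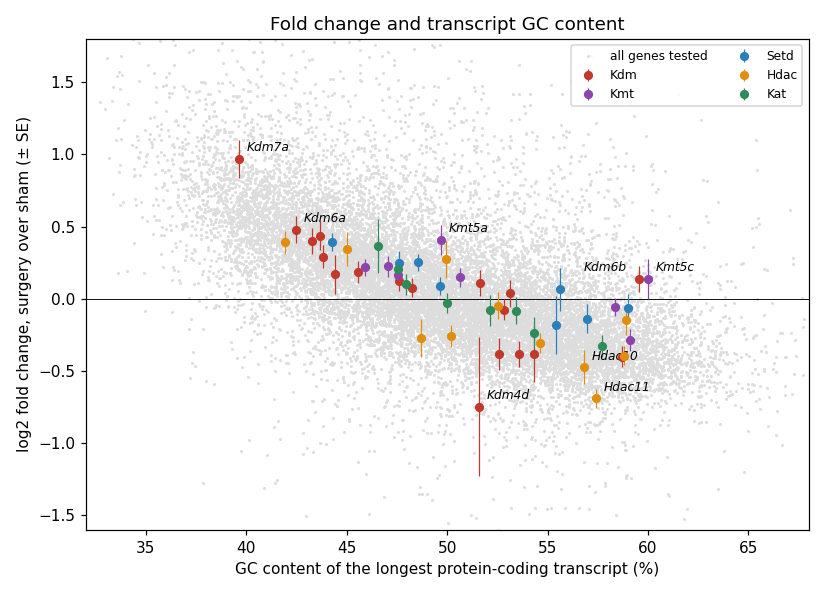
Log2 fold change of surgery over sham (± SE) against the GC content of the longest protein-coding transcript, for the 53 enzyme genes colored by family and for all genes tested in grey (genes beyond the axis limits are not drawn). Genes without a protein-coding transcript are placed by their longest transcript. Genes with GC-poor transcripts such as Kdm7a and Kdm6a lie above 0, GC-rich ones such as Hdac11 and Hdac10 below, and Kmt5c and Kdm6b are GC-rich genes above 0.

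The same relation was seen between close relatives, as a description of the same 53 genes and not a separate result. The pairs are all combinations within a subfamily, so a gene can be in several pairs, and the pairs are not independent. In 47 of 54 pairs of genes from the same subfamily, the gene with the lower GC content had the larger log2 fold change, and in 29 of the 30 pairs that lay at least 5 points of GC content apart. Hdac9 and Hdac5 (45.0% and 58.8% GC) had log2 fold changes of 0.35 and -0.39, and Kdm4c and Kdm4b (43.7% and 58.7% GC) of 0.44 and -0.40. The coding sequences of these pairs are shown over their most similar in-frame stretch of 120 bases, taken from GENCODE M21 transcripts, because they show related genes that differ in base composition. Capitals mark the bases that differ between the members of a pair.
Hdac5: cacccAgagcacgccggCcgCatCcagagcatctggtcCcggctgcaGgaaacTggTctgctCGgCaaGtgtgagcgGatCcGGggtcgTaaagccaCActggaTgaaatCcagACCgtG
Hdac9: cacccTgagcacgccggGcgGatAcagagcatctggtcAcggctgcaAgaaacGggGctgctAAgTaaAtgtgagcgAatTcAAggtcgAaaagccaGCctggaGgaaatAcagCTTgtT
Kdm4b: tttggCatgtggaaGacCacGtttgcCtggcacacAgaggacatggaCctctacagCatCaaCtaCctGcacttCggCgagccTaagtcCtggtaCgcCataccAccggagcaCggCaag
Kdm4c: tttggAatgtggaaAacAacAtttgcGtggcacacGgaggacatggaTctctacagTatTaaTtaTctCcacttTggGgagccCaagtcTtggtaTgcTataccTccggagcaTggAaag
Hdac5 and Hdac9 differ at 25 of these 120 bases, 20 of them at the third codon position, and the differing base is G or C at 18 positions in Hdac5 and at 8 in Hdac9. Kdm4b and Kdm4c differ at 21 bases, all 21 at the third codon position, with G or C at 18 in Kdm4b and at 5 in Kdm4c. Over the whole aligned coding sequence the first pair was 67.0% and the second 65.7% identical. At the third codon position, GC content over the whole coding sequence was 72.8% in Hdac5 and 52.6% in Hdac9, and 71.2% in Kdm4b and 43.5% in Kdm4c.

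With the trends of GC content and length removed from each library, the log2 fold change lay nearer to 0 in 42 of the 53 enzyme genes and farther in 11. The rho with GC content was then -0.02, beside -0.04 over all genes. The lower-GC gene then had the larger log2 fold change in 26 of the 54 pairs. The rho and the pairs follow largely from the correction, which removes the fitted trend, and are not separate results. Kdm7a was at 0.37 ± 0.13 (edgeR adjusted p = 0.17, over a range of 4.7e-09 to 0.17 across the alternatives) and Hdac11 at -0.44 ± 0.08 (edgeR adjusted p = 0.0505, the highest of a range that began at 1.7e-10). Corrected values of Setd2 (0.09), Kdm4c (0.09), Kdm6a (0.07), Kdm5a (0.04), Kat2a (-0.07), Kdm4b (-0.13), Hdac5 (-0.12) and Hdac6 (-0.14) were nearer to 0 than the uncorrected ones, as were those of Setd3 (0.17), Hdac10 (-0.24), Kdm4a (-0.25) and Kdm2b (-0.29). The sign changed in 18 of the 53 genes and in 4 of the 20 past the threshold, namely Hdac2 (-0.05), Kdm5d (-0.04), Kmt2e (-0.0046) and Kmt2b (0.0011). Kmt5a (0.38) and Hdac3 (-0.26) stayed close to their uncorrected values of 0.41 and -0.26. Kdm6b and Kmt5c, both GC-rich, had corrected values of 0.43 and 0.44 against uncorrected values of 0.14 and 0.14, and neither passed. By family the corrected medians were -0.12 for Hdac, -0.0045 for Kat, -0.01 for Kdm, 0.12 for Kmt and 0.11 for Setd. Other measures also separated the groups. Mitochondrially encoded transcripts were at 2.82% and 2.53% of counts in the sham mice and 4.45% and 4.49% in the surgery mice. A list of 10 nuclear-retained RNAs summed to 8484 and 8274 CPM against 9441 and 10633 CPM. Of these RNAs 5 were higher and 1 lower, beside 13.1% and 12.8% of all genes. They were GC-poor (median 43.7%), with a median log2 fold change of 0.32. With the GC and length trends removed their median was 0.13 (range -1.01 to 0.62), and 2 passed, beside 1.18% of all genes. The part of both measures in the enzyme genes' values was not tested.

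**Figure D4:**
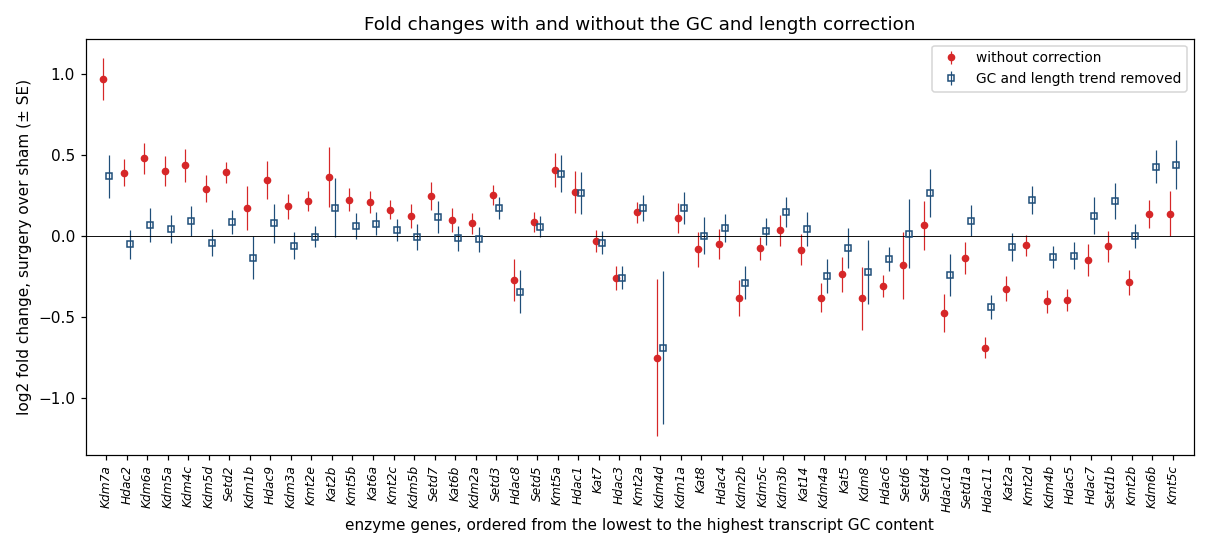
Log2 fold change (± SE) of each enzyme gene without the correction (red circles) and with the trends of GC content and length removed (blue squares), ordered from the lowest to the highest GC content. The red values decline from left to right, from 0.97 in Kdm7a. The blue values, from which the trend with GC content was removed, do not follow that order.

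Levels were compared between genes as CPM per kilobase of transcript, averaged over the 4 mice. Over all mice Setd3 was highest (51.9), followed by Hdac3 (45.4), Hdac5 (39.9), Hdac11 (39.0), Kat2a (27.8) and Kat7 (26.8). Kdm4b led the Kdm genes (23.8) and Kmt2e the Kmt genes (18.9), and Kdm4d was lowest (0.422). Within groups the order differed: in the sham mice Hdac3 (49.4) and Hdac11 (48.1) lay above Setd3 (47.4), whereas in the surgery mice Setd3 (56.4) lay above Hdac3 (41.3), and Kat7 (26.5) above Kat2a (24.7). The median over the 53 genes was 10.1 CPM per kilobase, beside 6.00 over all genes tested, and by family 15.85 for Hdac, 12.1 for Kat, 12.1 for Kmt, 8.61 for Setd and 7.48 for Kdm. Hdac5 and Hdac11 are neighbors in this order, and their levels overlapped between mice: Hdac5 ran from 33.0 to 46.1 and Hdac11 from 29.0 to 48.5 CPM per kilobase. Hdac11 was the higher of the pair in both sham mice, at 47.8 and 48.5 against 46.1 and 44.5, and the lower in both surgery mice, at 30.8 and 29.0 against 35.9 and 33.0. The transcripts of the enzyme genes were long, with a median of 4853 nt against 2977 nt over all genes. The medians over all genes, here and for the level per kilobase, include noncoding genes.

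Genes that work with these enzymes were followed in 7 lists of 123 genes, of which 122 were tested. In edgeR's test 24 rose (13.1% of all genes did) and 19 fell (12.8% of all genes). Of the 122, 9 were higher DEGs, beside 6.75% of all genes, and none lower DEGs, beside 2.25%, and the median log2 fold change was -0.02. With the GC and length trends removed 2 passed, beside 1.18% of all genes, namely Rbbp4 (-0.49) and Rbbp7 (-0.42), histone-binding subunits shared by Polycomb and deacetylase complexes. Of 19 other methyltransferases 4 rose and 3 fell. Nsd2, which methylates H3K36, rose by 0.56 ± 0.07 (edgeR adjusted p = 0.0049), and Ehmt2, the H3K9 methyltransferase G9a, fell by 0.48 ± 0.06 (305 and 309 CPM against 217 and 225 CPM, edgeR adjusted p = 0.0047). Of 7 other demethylases 3 rose and none fell. The Y-linked relative of Kdm6a, Uty, rose by 0.77 ± 0.15 (11.2 and 9.19 CPM against 17.5 and 17.4 CPM, edgeR adjusted p = 0.012).

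The counts of the complexes below stand beside 13.1% of all genes higher and 12.8% lower in edgeR's test. Of the 12 COMPASS and MLL partners tested, which assist the H3K4 methyltransferases, 2 rose and 3 fell, among them the scaffold Hcfc1 (-0.38 ± 0.06). Of 9 genes of the Polycomb repressive complex that methylates H3K27, 3 rose (13.1% of all genes did) and none fell. The median of the 9 was -0.02, and -0.07 with the GC and length trends removed, when the 2 genes that passed, Rbbp4 and Rbbp7, were lower. The core subunit Suz12 was at 23.2 and 21.4 CPM in the sham mice and 38.3 and 40.9 CPM in the surgery mice (0.83 ± 0.10, edgeR adjusted p = 0.0046). Of 28 genes of the corepressor complexes that hold the class I deacetylases, 7 rose and 7 fell. Of the 28, 5 were higher DEGs, beside 6.75% of all genes, and none lower DEGs, beside 2.25% of all genes. Arid4a (0.86 ± 0.11) and Mier1 (0.82 ± 0.10) rose, while Mbd3 (-0.50 ± 0.08) and Chd5 (-0.38 ± 0.08) fell. Their GC contents were 44.0% and 39.1% for the former pair and 62.9% and 57.4% for the latter. Of 39 genes of acetyltransferase complexes 4 rose (10.3%) and 6 fell (15.4%), shares near those of all genes. The 6 that fell included the SAGA subunits Trrap (-0.40 ± 0.06) and Usp22 (-0.28 ± 0.06). Of 8 other acetyltransferases 1 rose (Taf1), a share near that of all genes, and none fell.

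The exons of 18 of the 53 enzyme genes overlap a gene on the opposite strand. Whether the counting used strand is not stated, so the counts of those genes may include reads of the overlapping gene. The antisense gene at Kdm7a, 4930599N23Rik, was at 0.274 to 0.639 CPM in the 4 libraries, far under Kdm7a, and those at Hdac11, Gm14573 and Gm44002, were not analysed here. The genes at Kdm1b and Kdm2b were higher counted, with Rnf34 (opposite Kdm2b) at 44.4 to 52.2 CPM and Dek (opposite Kdm1b) at 21.9 and 23.0 CPM in the sham mice and 44.8 and 49.2 CPM in the surgery mice. Slc48a1, opposite Hdac7, was counted above that gene, at 150 and 157 CPM in the sham mice and 128 and 114 CPM in the surgery mice. Rnaseh2c, opposite Kat5, was at 19.4 and 19.6 CPM against 16.4 and 13.6 CPM. Both were lower in the surgery mice, and their part in the counts of Hdac7 and Kat5 was not tested. More than 5% of the windows were shared with other genes in Setd1a, Hdac1, Kat14, Setd3, Kdm4d (6.26%) and Kdm2b (5.32%).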

How the data were processed

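Poly(A) RNA of hippocampal tissue was isolated with oligo(dT) beads, and paired-end reads of 150 nt were obtained from 2 sham and 2 surgery mice. The authors mapped the reads to mm10 with HISAT and deposited unnormalized counts of reads for each gene and mouse. The submitters' processing notes list HISAT2 2.1.0, HTSeq 0.6.0, Bowtie2 2.2.3 and TopHat2, without roles, and the use of strand is not given in the sources used here. The same table holds the authors' own comparison (mean signal, fold change, log2 fold change, p-values and a mark of significance), which was not used.

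Counts were filtered with edgeR's filterByExpr (minimum count of 10), scaled by TMM and tested with edgeR 4.0.16 (glmQLFit and glmQLFTest in R 4.3.3, limma 3.58.1) with group as the only term and Benjamini-Hochberg adjustment over 17144 genes. A DEG had an adjusted p under 0.05 and passed the study's fold-change limits, 1.5 upward and 0.67 downward. CPM were taken from TMM-scaled libraries, SDs are over 2 mice per group, SEs are those of the edgeR fit, whose spread is moderated over all genes (the log2 fold change divided by the root of F), and the precision is limited by the number of mice more than by depth. Each library's trends with transcript GC content and length were fitted by smooths of basis size 8 (mgcv 1.9.3), whose values were the offsets of the correction. DESeq2 1.42.0, other scalings and filters, the replicate number as a block and leaving out each mouse were alternatives, and the separate corrections for GC content and for length were added after the data were seen. The scripts were tested on simulated data.

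The members and the gene lists were chosen with earlier results of these data known. Named genes were, in each family, the 3 with the largest and the 2 with the smallest log2 fold change, the gene with the highest level per length and any DEG (26 genes in all, with a mean of at least 1 CPM). The other genes with values were chosen after their values were seen. Coordinates are those of the deposited table, 51 of the 53 being the same in GENCODE M21, which gave transcripts, overlaps and the 75 nt windows for shared sequence. Replicates differed by more than sampling noise (chi-square per degree of freedom 13.4 between the sham mice and 8.45 between the surgery mice). The values of 1 gene of the lists are not reported here.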

Additional observations from a re-analysis of the deposited data

How the results depend on the processing

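With 2 mice per group, leaving out 1 mouse left a lone sample that was assumed to vary like the other group. Over those 4 fits, higher and lower DEGs numbered 754 to 1312 and 254 to 614 over all genes (1158 and 386 with all mice), 1 to 2 and 1 to 1 over the enzyme genes, and 6 to 13 and 0 to 3 over the partner and related genes (9 and 0). Enzyme genes past an adjusted p of 0.05 numbered 3 to 8 higher and 3 to 6 lower (10 and 10). Medians of the log2 fold change ran from 0.0224 to 0.0697 over the enzyme genes, -0.0433 to -0.0258 over the partner and related genes, -0.0880 to -0.0117 for Kat, 0.0432 to 0.18 for Kdm and 0.0591 to 0.14 for Setd. Setd6 ran from -0.47 to 0.0613 and changed sign without surgery 2. The replicate numbers were used as a block although no label pairs the mice (correlation of the deviations of same-numbered mice 0.22 over 2 pairs). With the replicate block alone 23 enzyme genes passed, 13 higher and 10 lower. DESeq2 called 8 higher and 8 lower, its size factors and upper-quartile factors with edgeR 10 and 10 each, a minimum count of 30 12 and 8, and no filter 3 and 3. At looser limits on the fold change, 7 enzyme genes were higher and 7 lower DEGs. With library totals, lower DEGs over all genes were 224 and the medians 0.13 (enzyme genes), 0.0246 (partner and related genes) and -0.0075 (Kat). The partner and related median was -0.0329 without a filter and -0.0046 at a minimum count of 30. Under the GC and length correction, the same with the replicate block, and GC correction alone, in that order, higher DEGs over all genes were 58, 250 and 59, lower DEGs 53, 145 and 59, and both counts were 0, 0 and 0 over the enzyme genes. Enzyme genes past an adjusted p of 0.05 were then 0, 6 and 0 higher and 0, 2 and 1 lower, the 8 under the block being Kdm6b, Kdm7a, Kmt2a, Kmt2d, Kmt5a and Kmt5c (higher) and Hdac3 and Hdac11 (lower), beside 13.9% of all genes. Higher DEGs of the partner and related genes were 0, 0 and 0, and 1 was lower under the block. The medians were 0.0397, 0.0393 and 0.0307 for the enzyme genes, -0.12, -0.12 and -0.12 for Hdac, -0.0045, -0.0056 and -0.0082 for Kat, and -0.0113, -0.0097 and -0.0141 for Kdm. Among the genes named by rule, these 3 corrections turned the direction of Hdac2 (-0.0512, -0.0527 and -0.0536), Kat6b (-0.0129, -0.0127 and -0.0147), Kmt2d (0.22, 0.23 and 0.21), Kmt2e (-0.0046, -0.0046 and -0.0050), Setd1a (0.0944, 0.0940 and 0.0960) and Setd6 (0.0149, 0.0051 and 0.0089), and the first 2 that of Kmt2b (0.0011 and 0.0012). With length correction alone, lower DEGs over all genes were 656 and those of the partner and related genes 2, 2 enzyme genes were higher and 11 lower, Kat6b was at -0.0598, and the medians were -0.0698 (enzyme genes), -0.16 (partner and related), -0.0944 (Kat), -0.0275 (Kdm), 0.0061 (Kmt) and -0.0016 (Setd). The cause of these shifts was not tested.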
